A study of Sus scrofa with 23 samples.

Results

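The arrays described here are the first 6 of the 23 columns of the deposited value table, taken as a set of pig bone marrow-derived macrophage cultures. They were chosen by column order, a reading that rests on measured values, among them the similarity of the arrays to each other and the level of a Y-linked gene. Under that reading the columns hold unstimulated cultures of 3 pigs, with columns 1 and 2, 3 and 4, and 5 and 6 as the duplicate cultures of an animal. GEO's labels say otherwise. They give all 6 arrays to pig 1, a male, as culture at 0, 2, 7 and 24 h of lipopolysaccharide (LPS) and a duplicate culture at 0 and 2 h, so that only 2 of the 6 carry the label of an unstimulated culture. The condition of the set is therefore not settled by the labels. Below, the arrays are called array 1 to array 6 by their column, and nothing is compared between times.

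The series itself grew marrow cells of 3 pigs, a Large White by Landrace first cross, with recombinant human CSF1, reseeded them and left them overnight. The cells were then given LPS of Salmonella enterica serotype minnesota at 100 ng/ml, and RNA was taken at 0, 2, 7 and 24 h for Affymetrix porcine arrays. Per the labels pigs 1 and 3 were male and pig 2 female, and duplicate cultures were used. The age of the pigs is not stated in these sources.

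CSF1 is the growth factor that drives marrow precursors to become macrophages. These cells engulf particles and digest them in lysosomes, acid compartments filled with proteases called cathepsins, lipid and sugar hydrolases, and membrane proteins that pump in protons. On their surface they carry receptors for microbial products, such as TLR4 with CD14 and LY96 for LPS, receptors for antibody, and scavenger receptors such as CD163, which takes up haemoglobin bound to haptoglobin.

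The Y-linked gene EIF1AY, whose protein helps ribosomes start translation, did not match the labelled sex on 2 of the 6 arrays. Its log2 intensity was 9.10, 9.26, 9.25 and 9.45 on arrays 1, 2, 5 and 6, and 3.63 and 3.60 on arrays 3 and 4, although all 6 are labelled male. SRY, also Y-linked, lay between 4.13 and 4.30 on all 6 and did not separate them. For all 6 arrays the most similar of the 23 arrays was the neighbour within columns 1 and 2, 3 and 4, or 5 and 6, and for 0 of 6 was it a labelled duplicate. Correlations over 23999 probe sets, which share the array design and the authors' normalization, were 0.995 to 0.997 within the 3 neighbouring pairs and 0.988 to 0.992 for the other 12 pairs of arrays. Array similarity and EIF1AY are among the values on which the column-order reading rests, so they are no separate check of it. Neither shows whether a culture was unstimulated. Because EIF1AY on arrays 3 and 4 did not match their labelled sex, the main counts are given with and without them. Because the arrays are no labelled group, levels are given as the lowest, median and highest of the 6, with no SD and no test.

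The values are probe set intensities on the log2 scale. Array medians ran from 72.2 to 73.9 intensity units before the log was taken, and for arrays their number limits the precision. The 6765 genes with a named probe set had a median level of 8.05. A percentile below is the place of a gene's median level among these genes. A background level was taken from 92 probe sets of 72 genes of liver, muscle, nerve, pancreas, kidney and other tissues that a macrophage culture should lack. Their median was 4.55, and their 95th percentile, 6.90, is called the background level. Of the 6765 genes, 4407 (65.1%) lay above it, and 2358 did not. Without arrays 3 and 4 the count was 4394.

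Brightness is not a count of transcripts, because probe sets bind with different strength. Of the 2261 genes with more than 1 probe set, the brightest and dimmest differed by a median of 1.91 log2 units, and in 704 genes (31.1%) by 3 or more. GPNMB, a lysosomal glycoprotein, had 5 probe sets with medians of 14.47, 11.59, 7.25, 6.71 and 6.04. RPL30 and RPS15A, which encode parts of the ribosome and are used by every cell, stood at 4.49 and 4.25. A gene below 6.90 is therefore described as not above background, which does not show that it is silent. Within the background list, which does not hold these ribosomal genes, AMY2, a pancreatic amylase, had 1 probe set at 12.34 and others at 6.42 and 6.06. MBP, named for myelin, had probe sets at 11.37, 9.79, 5.96 and 4.87, and KRT10, a keratin, stood at 9.15, so the list does not hold dim probe sets only. Order between genes below is an order of the brightest probe set of each gene.

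The brightest genes included both ferritin chains and many genes of the ribosome and the lysosome. FTL, the light chain of the iron store ferritin, was the brightest of all, at 14.82 (lowest 14.81, highest 14.84), followed by FTH1, its heavy chain, at 14.68 (14.66 to 14.71). RPS18, a ribosomal protein, had 14.61 (14.57 to 14.66) and VIM, the filament protein vimentin, 14.59 (14.49 to 14.66). CTSB, the protease cathepsin B, followed at 14.50 (14.39 to 14.57). The carbohydrate-binding galectins LGALS1 and LGALS3 came next, at 14.49 (14.45 to 14.53) and 14.48 (14.39 to 14.52), then GPNMB at 14.47 (14.31 to 14.55). TMSB10, an actin-binding thymosin, had 14.40 (14.36 to 14.44). SPP1, the secreted adhesion protein osteopontin, had 14.32 (14.18 to 14.40), and B2M, the light chain of class I MHC, 14.28 (14.23 to 14.49).

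The rest of the 25 brightest stood between 14.38 and 14.17. They were the ribosomal genes RPS20, RPS12, RPLP0 and RPS29, the elongation factor listed as EF1ALPHA, the glycolytic enzyme GAPDH and the actin ACTG1. With them came the proton pump subunit ATP6V0C, the cathepsins CTSS and CTSH, the cathepsin inhibitor CSTB, PSAP, TPT1 and the fatty acid carrier FABP5. PSAP is the precursor of the saposins, which help lysosomal enzymes reach their lipids. The 25 genes covered only 0.66 log2 units and spanned a median of 0.12 over the 6 arrays. The ranges overlapped for 22 of the 24 neighbours in rank, so their order is mostly within the spread. The highest value on each array was 14.81 to 14.84, and 55 named genes lay within 1 log2 unit of FTL, so the scale is narrow at the top. Of the 100 brightest genes, 46 were among the 62 ribosomal protein genes, 15 among the 59 genes of the lysosome lists below, and 3 among the 25 of the cytoskeleton list. The 25 brightest held 7.76% of the summed intensity of all named genes, the ribosomal genes 11.5% and the lysosome genes 6.46%.

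**Figure D1:**
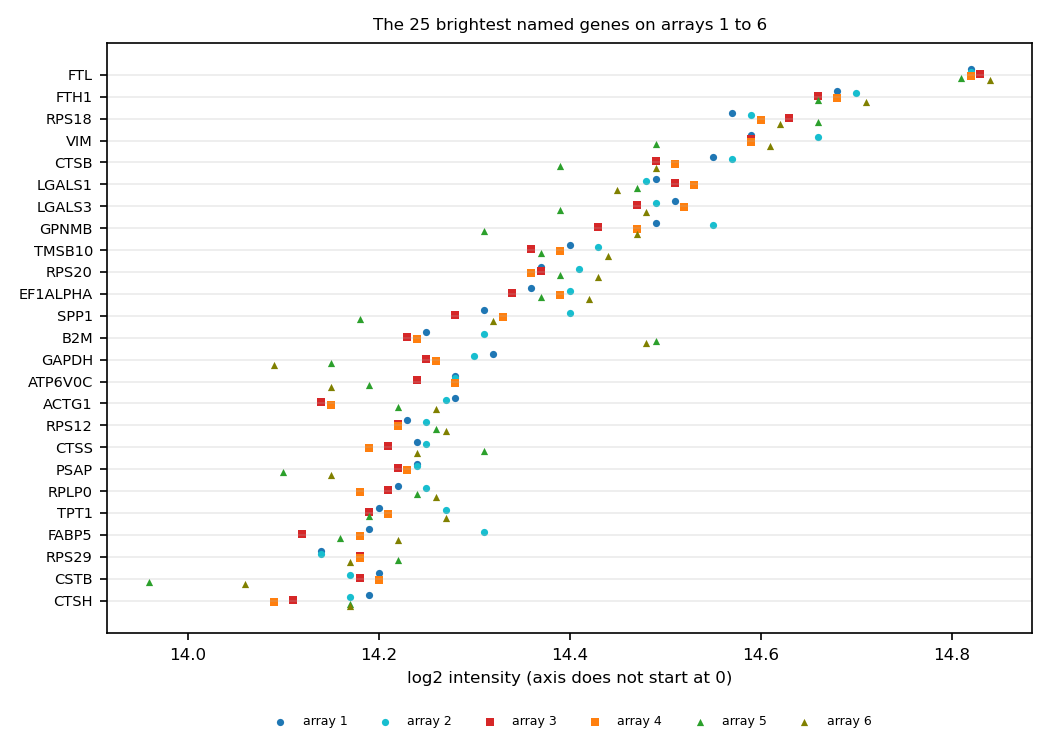
Log2 intensity (horizontal axis, which does not start at 0) of the 25 brightest named genes, 1 row a gene in order of the median, with a point for each of the 6 arrays (circles arrays 1 and 2, squares 3 and 4, triangles 5 and 6). FTL at 14.82 and FTH1 at 14.68 stand at the top, and from there to CTSH at 14.17 the ranges of most neighbours overlap.

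Genes of the lysosome were bright. Of 59 measured genes in the lysosome lists, 56 were above background, beside 65.1% of all genes, and 43 were in the top decile. Their median was 12.65, at percentile 96.7, beside 8.05 for all genes. Their spread was near that of all genes: 2 of the 59 spanned 1 log2 unit or more over the 6 arrays, beside 5.01% of all genes, and the median span was 0.33, beside 0.36.

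Among 14 proteases and their inhibitors, 12 were above background and the median was 13.95. CTSB had the highest level, as given above. CTSS, cathepsin S, which trims the invariant chain of class II MHC, had 14.24 (14.19 to 14.31). CTSH, an aminopeptidase, had 14.17 (14.09 to 14.19), and LGMN, legumain, a protease that activates cathepsins, 14.13 (13.99 to 14.21). CTSK, cathepsin K, best known as the bone collagen protease of osteoclasts, stood at 14.12 (14.06 to 14.24). CTSD, the main aspartic protease of lysosomes, stood at 13.80 (13.78 to 13.82). Lower in the list were CTSC at 12.72, the peptidase TPP1 at 9.88, and the gene listed as CTSV at 7.24. This gene entered the list through CTSL, the symbol of cathepsin L, which RefSeq gives as its synonym and also as a separate pig gene, so which cathepsin it is remains uncertain. CTSV was also the list's only gene that spanned more than 1 unit: 7.87, 7.93, 7.26 and 7.21 on arrays 1 to 4 against 6.09 and 6.12 on arrays 5 and 6. CST6, a secreted cystatin, and CTSW, the cathepsin of cytotoxic lymphocytes, were not above background, at 6.45 and 5.25.

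Of 22 hydrolases and lipid handling proteins, 21 were above background, with a median of 11.61. PSAP led at 14.23 (14.10 to 14.24). IFI30, a thiol reductase that opens disulfide bonds of antigens, had 13.70 (13.28 to 13.76) from its brighter probe set and 7.30 from the other. NPC2, which hands cholesterol to the membrane protein NPC1, had 13.70 (13.61 to 13.83), and NPC1 11.59 (11.47 to 11.80). GRN, progranulin, stood at 13.47 (13.42 to 13.58), and LIPA, the acid lipase that frees cholesterol from its esters, at 13.16 (13.10 to 13.42). ACP5, the tartrate-resistant acid phosphatase, was the member that varied most, with 12.67, 12.63, 12.87 and 12.79 on arrays 1 to 4 and 11.80 and 11.59 on arrays 5 and 6. The dimmest member was SGSH, a heparan sulfatase, at 6.27.

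All 23 membrane proteins and proton pump subunits were above background, all lay above the median of all genes, and 0 spanned 1 unit. GPNMB and ATP6V0C were among the 25 brightest. CD63, a tetraspanin of late endosomes, had 13.84 (13.78 to 13.93), LITAF 13.71 (13.42 to 13.90), LAMP1 12.84 (12.71 to 12.95) and LAMP2 12.71 (12.32 to 12.77). LAMP1 and LAMP2 are the main glycoproteins of the lysosomal membrane. LAPTM5, a lysosomal membrane protein of blood cells, had 13.14 (13.05 to 13.27) from its brighter probe set. Its dimmer probe set read 7.58, 8.27, 7.69, 8.18, 7.37 and 8.19 on arrays 1 to 6, higher on every even-numbered array. SLC11A1, the metal pump of the phagosome also called NRAMP1, at 9.22, and the calcium channel MCOLN1 at 8.68 were the lowest of the list.

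**Figure D2:**
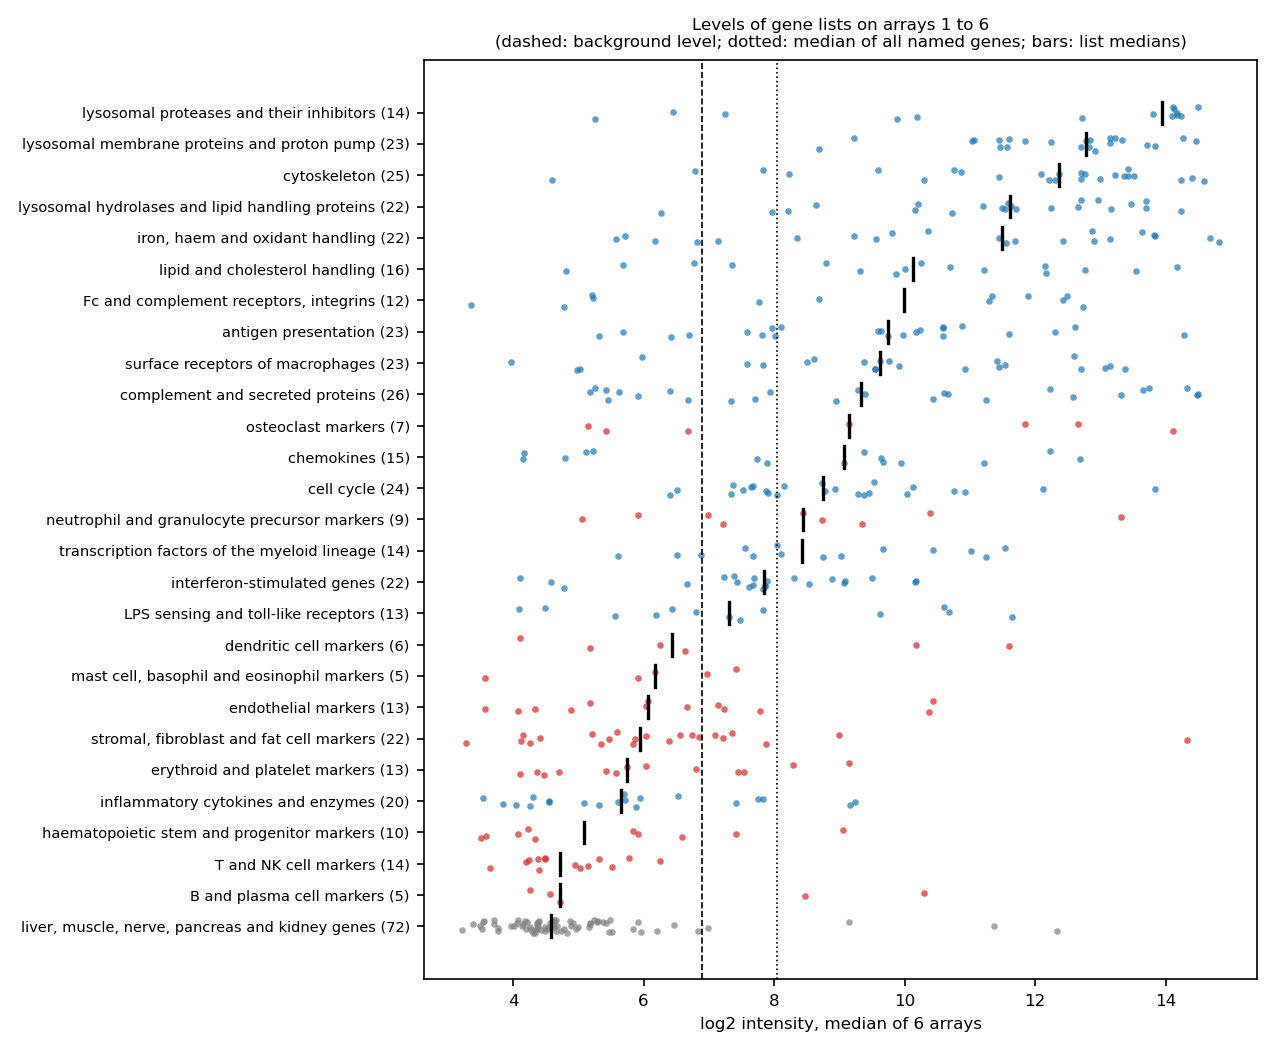
Levels of all measured members of each gene list (horizontal axis: log2 intensity, median of the 6 arrays; 1 point a gene; number of genes in brackets), with a black bar at the list's median. Blue points are functional lists, red points markers of other cells and grey points the background list. The dashed line is the background level of 6.90 and the dotted line the median of all named genes, 8.05. Lysosomal proteases have the highest median at 13.95 and the background list the lowest at 4.58.

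The list of surface receptors of macrophages ran over nearly the whole scale. It also holds proteins that are not surface receptors, such as TYROBP, AIF1 and LAPTM5, which is counted in the lysosome lists too. Of 23 measured members, 19 were above background, beside 65.1% of all genes, and the median was 9.62 at percentile 74.0. The tetraspanin CD9 was the brightest at 13.38 (13.32 to 13.45), followed by LAPTM5, given above. TYROBP, the adaptor that carries the signal of TREM receptors, had 13.07 (at most 13.14), and AIF1, an actin-bundling protein of macrophages, 12.71 (12.62 to 12.97). CCR1, a receptor for inflammatory chemokines, stood at 12.60 (12.22 to 12.80), and SIRPA, which receives the "do not eat me" signal of CD47, at 11.41 (11.12 to 11.47). Among these CCR1 varied most, by 0.58 over the arrays.

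Of the 4 genes used to check the identity of the cells, all were above background by their brightest probe set, beside 65.1% of all genes. Most genes pass that level, so the count alone does not identify the cells. CD163 read 9.86, 9.72, 9.45, 9.27, 9.29 and 9.28 on arrays 1 to 6, and its other probe set had a median of 6.16. TLR4 read 9.58, 9.67, 9.70, 9.69, 9.58 and 9.49, and its other 4 probe sets had 8.11, 7.45, 7.43 and 4.24. CD14, the co-receptor that delivers LPS to TLR4, was lower and less even, with 8.43, 8.59, 7.46, 7.13, 7.80 and 7.85, a median of 7.83 at percentile 46.2, and 5.73 from its dimmer probe set. MRC1, the mannose receptor, fell in the same range with 8.27, 8.42, 7.65, 7.51, 7.06 and 7.01. For both genes arrays 1 and 2 were the highest, and no array was below background.

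Other receptors known from macrophages were not above background on these probe sets. MARCO, a scavenger receptor, had 5.97 (5.58 to 6.15), SIGLEC1, the sialoadhesin of tissue macrophages, 5.02 (4.90 to 5.20), CCR2, the monocyte receptor for CCL2, 4.98 (4.78 to 5.08), and CD4 3.97 (3.78 to 4.25). The integrin chain ITGAM, also called CD11b, had 4.78 and 4.45 from its 2 probe sets, while ITGB2, its partner chain, had 11.34 (11.21 to 11.55). The antibody receptors were led by FCER1G, their shared signalling chain, at 12.73 (12.54 to 12.88), and FCGR3A at 12.43 (12.18 to 12.67). FCGRT, which recycles antibody, had 11.89, FCGR2B, the inhibitory receptor, 8.69, and FCGR1A, the high-affinity receptor, 7.77. CR1, a complement receptor, was at 3.35. In that list 8 of 12 genes were above background, a share near that of all genes.

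LPS sensing genes were spread over the whole scale. Of 13, 7 were above background, beside 65.1% of all genes, and the median of 7.30 was below that of all genes. LY96, the protein that binds LPS beside TLR4, was the brightest at 11.64 (11.44 to 11.76), then TLR2, which senses bacterial lipoproteins, at 10.68 (10.51 to 11.07), the kinase IRAK1 at 10.61 (10.31 to 10.86) and TLR4 at 9.62. The adaptor MYD88 had 7.48 (7.41 to 7.59) and the ubiquitin ligase TRAF6 7.30 (6.52 to 7.57). TLR8, TLR6 and TLR9 were not above background, at 6.80, 6.43 and 6.19. TLR1 was at 4.09, and LBP, a serum protein made by the liver, at 4.48. The count was 4 of 13 with the median of each gene's probe sets, and 2 with the dimmest.

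**Figure D3:**
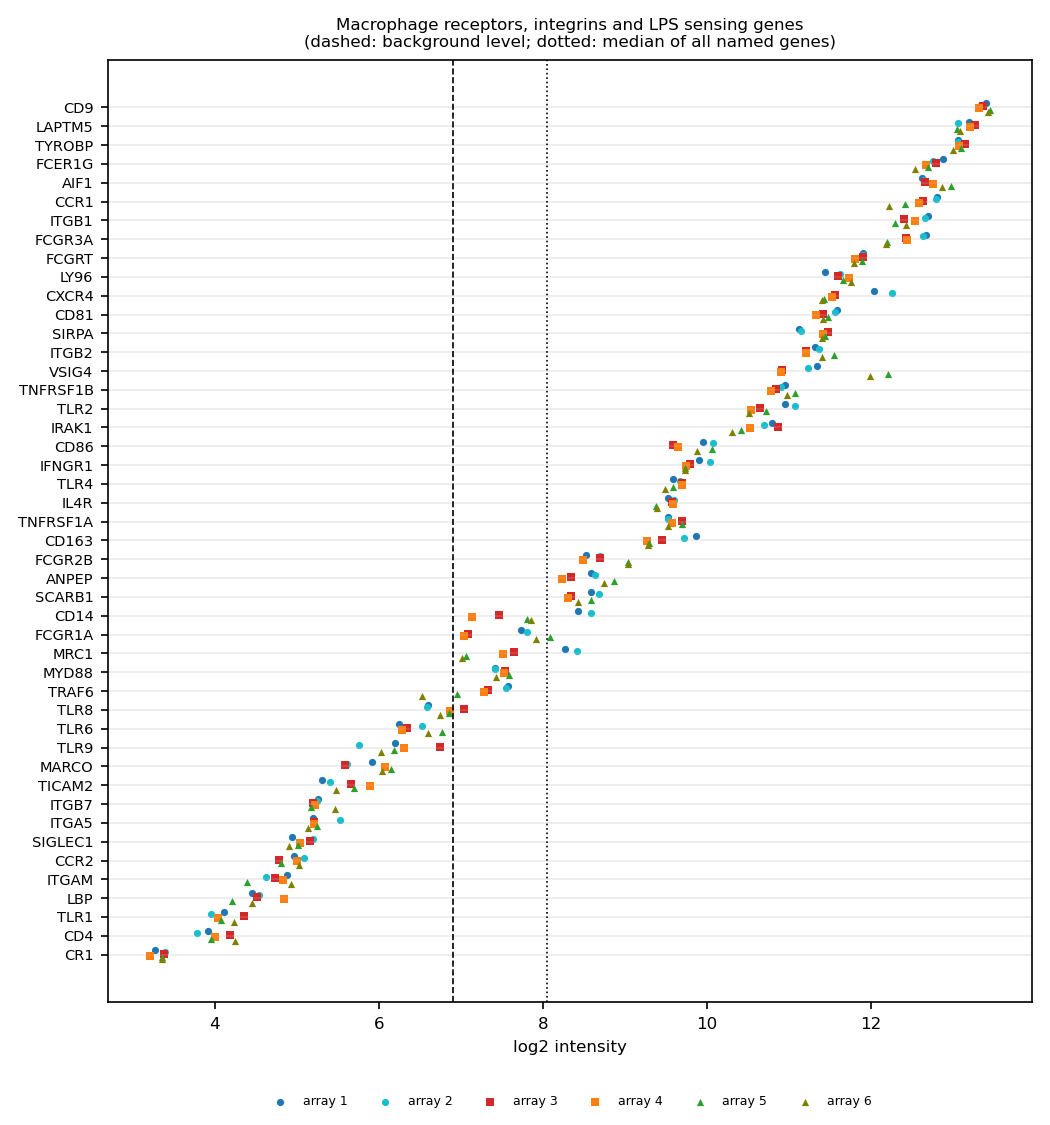
Log2 intensity (horizontal axis) of the measured members of the lists of surface receptors, antibody and complement receptors, integrins and LPS sensing genes. Each row is a gene, in order of the median, with a point for each array (circles arrays 1 and 2, squares 3 and 4, triangles 5 and 6). Dashed and dotted lines mark the background level of 6.90 and the median of all named genes, 8.05. Most rows are narrow; CD14, MRC1 and CXCR4 are highest on arrays 1 and 2, and VSIG4 on arrays 5 and 6.

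Transcription factors of the myeloid lineage were above background in 11 of 14 cases, beside 65.1% of all genes, at a median of 8.43. SPI1, the factor PU.1 that directs macrophage development, had 9.67 (9.57 to 9.76). CEBPB, which acts in mature macrophages, was brighter, at 11.54 (11.33 to 11.78), as was NR1H3, the sterol sensor LXR alpha, at 11.02 (10.87 to 11.19). ID3, a factor that blocks DNA binding of others, had 10.51 and 10.68 on arrays 1 and 2 and 11.57, 11.56, 11.30 and 11.19 on arrays 3 to 6. KLF4 and ID2 were not above background, at 6.51 and 5.61.

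Lipid handling genes stood high: 13 of 16 were above background, beside 65.1% of all genes, at a median of 10.12. FABP5 and FABP4, carriers of fatty acids, had 14.18 (14.12 to 14.31) and 13.54 (13.37 to 13.74). SCD, which makes unsaturated fatty acids, had 12.77, and LPL, which releases fatty acids from lipoproteins, 12.16, with a low of 11.44 on array 3 and a high of 12.80 on array 6. APOE had 11.22 (10.89 to 11.91). ABCA1, the exporter of cholesterol, read 9.97, 10.03, 10.23 and 10.13 on arrays 1 to 4 and 8.89 and 9.19 on arrays 5 and 6.

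Of 22 genes of iron, haem and oxidant handling, 18 were above background, beside 65.1% of all genes, at a median of 11.50. Beside the ferritin chains, GPX1, a peroxidase, had 13.83 (13.66 to 13.89) and thioredoxin, TXN, 13.82 (13.69 to 13.86). GP91-PHOX and CYBA, the membrane chains of the oxidase that makes superoxide, had 13.14 (12.73 to 13.65) and 12.87 (12.74 to 12.92). TFRC, the receptor for transferrin iron, was at 5.57 (5.32 to 5.84) and haptoglobin, HP, at 5.71. The secreted protein and complement list had 18 of 26 members above background, a share near the 65.1% of all genes. S100A4, a calcium-binding protein, had 13.74 (13.50 to 13.82), and C3, the central complement protein, 12.09, 12.15, 12.22 and 12.25 on arrays 1 to 4 and 13.64 and 13.62 on arrays 5 and 6. The first complement component was seen through C1QC at 9.28 and C1QA at 8.94, while C1S and C4A were not above background, at 5.26 and 5.18.

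Genes of antigen presentation were above background in 19 of 23 cases, beside 65.1% of all genes, at a median of 9.74. Class I was led by B2M and by SLA-2 at 12.61 (12.29 to 13.37), and the chaperone CANX had 12.31 (12.24 to 12.42). The class II chains were SLA-DRA at 9.74, SLA-DQB1 at 9.97, SLA-DRB1 at 10.24 and SLA-DQA1 at 10.58. These genes were among the less even, with 9 of 23 spanning 1 unit or more beside 5.01% of all genes. SLA-DRA read 9.73, 9.76, 9.45, 9.30, 10.54 and 10.43, and SLA-DQA1 10.54, 10.61, 10.08, 9.91, 11.33 and 11.23, so arrays 5 and 6 were highest and 3 and 4 lowest in both. SLA genes are near-identical copies, so which copy a probe set reads is uncertain. CD80, a costimulator, and SLA-DOA were not above background, at 5.32 and 5.68.

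Inflammatory cytokines and enzymes had the lowest median of the functional lists, 5.65, with 5 of 20 above background, beside 65.1% of all genes. The low TNF and IL1B levels of these columns were known when the set was chosen, so they support nothing about its condition. TNF read 5.53, 5.44, 5.68, 5.42, 6.10 and 5.87 on arrays 1 to 6, all below the background level. On the 6 arrays that the labels give as 0 h, drawn from all 3 pigs, TNF ran from 5.53 to 12.43. Above the background level of those arrays were 9 of the 20 genes, beside 4058 of all 6765 genes. IL6 had 4.30 (3.97 to 5.64), PTGS2, the inducible prostaglandin synthase, 4.26 (4.05 to 5.02), IL12B 4.05 (3.47 to 4.31), LIF 3.84 (3.60 to 4.23) and the interferon gene IFNB1 3.53 (3.27 to 3.75). The 5 members above background were ARG1, the arginine-splitting arginase, at 9.24 (8.09 to 9.91), IL18 at 9.16 (8.94 to 9.93), IL1B at 7.83 (7.53 to 8.60), INHBA at 7.75 (7.68 to 8.05) and the prostaglandin E synthase PTGES at 7.41 (6.91 to 8.53).

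Of the chemokines, 10 of 15 were above background, a share near the 65.1% of all genes, at a median of 9.07. CCL2, which attracts monocytes, was brightest, and read 12.85, 13.01, 12.86, 12.52, 11.38 and 11.28, lower on arrays 5 and 6. AMCF-II, a porcine neutrophil attractant, had 12.23 (11.99 to 12.41) from 1 probe set but 6.14 and 4.50 from the others. CCL8 had 11.21 (10.86 to 12.07), CCL3L1 9.94 (9.36 to 10.22) and CXCL8, the neutrophil attractant interleukin 8, 9.67 (8.80 to 10.16). CXCL9, induced by interferon gamma, had 4.79 (4.18 to 5.02), and CXCL12 and CCL24 were at 4.15 and 4.17.

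Interferon-stimulated genes were mostly near the middle of the scale: 18 of 22 were above background, beside 65.1% of all genes, or 11 of 22 with the dimmest probe set of each gene. Their median of 7.84 was close to that of all genes. IFIT3 had 10.17 (9.91 to 10.40), SAMHD1, which limits nucleotides for viruses, 10.16 (9.59 to 10.38), and the kinase EIF2AK2 9.50 (9.13 to 9.89). Of the 22 members, 9 spanned 1 unit or more, beside 5.01% of all genes. ISG15, a ubiquitin-like modifier, read 9.05, 10.15, 8.52, 8.55, 7.99 and 7.88. OAS1, which makes an activator of RNA cleavage, read 7.33 and 7.85 on arrays 1 and 2 and lay between 4.20 and 4.62 on the other 4. RSAD2, an antiviral protein, was 9.55 on array 2 and between 8.12 and 8.76 on the others.

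**Figure D4:**
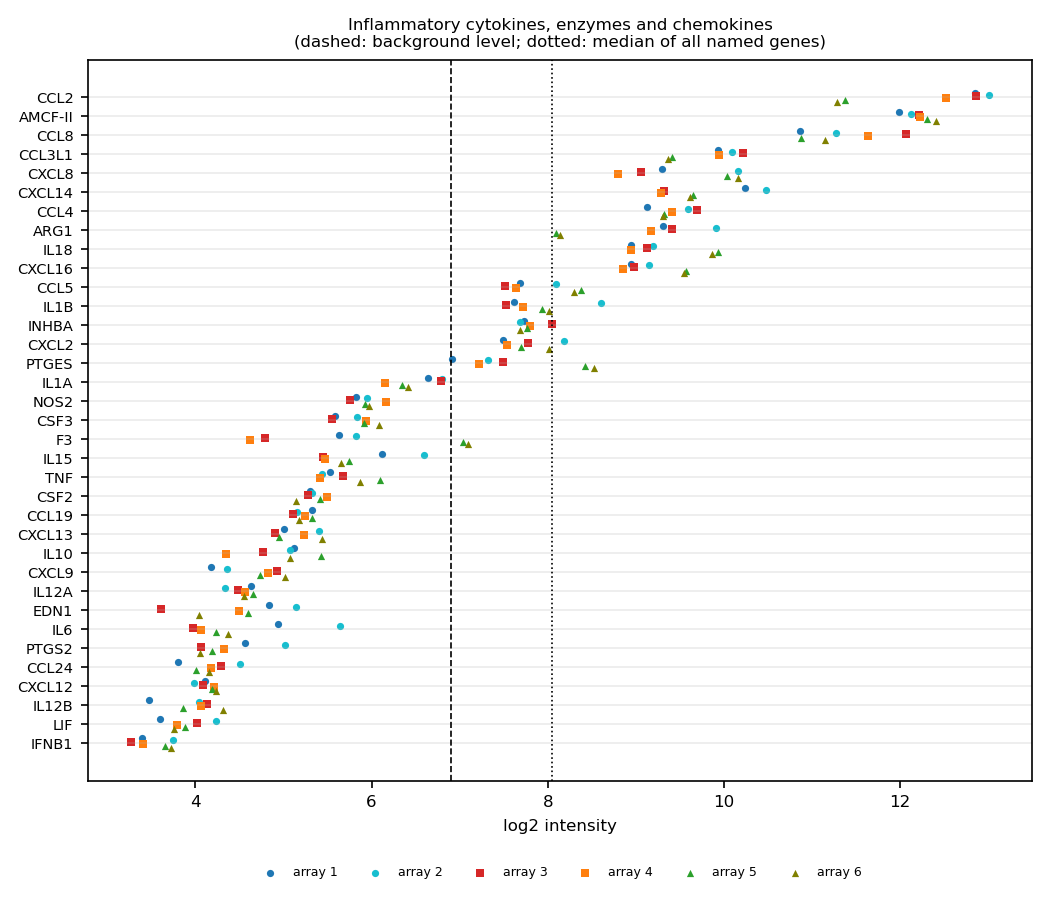
Log2 intensity (horizontal axis) of inflammatory cytokines, enzymes and chemokines, 1 row a gene in order of the median, with a point for each array (circles arrays 1 and 2, squares 3 and 4, triangles 5 and 6). Dashed and dotted lines mark the background level of 6.90 and the median of all named genes, 8.05. CCL2, AMCF-II and CCL8 lie at 10.86 or higher on every array, while TNF, IL6, PTGS2 and IFNB1 lie left of the dashed line on all 6.

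Of 24 cell cycle genes, 22 were above background, beside 65.1% of all genes, or 14 with the dimmest probe set of each gene. Their median was 8.75, and 1 spanned 1 unit or more. The brightest was the tubulin TUBA1B at 13.83, followed by CDKN1A, the inhibitor p21, at 12.12 (12.05 to 12.26), STMN1, a tubulin-binding protein of dividing cells, at 10.93 and the replication clamp PCNA at 10.75 (10.53 to 10.84). TOP2A, a topoisomerase of dividing cells, had 9.53 (9.32 to 9.80), CCNB1, the mitotic cyclin, 9.45 (9.32 to 9.73), and RRM2, a subunit of the enzyme that makes DNA precursors, 9.37 (9.20 to 9.80). PLK1 and CCNA2 were not above background, at 6.51 and 6.40. Of 25 cytoskeleton genes, 23 were above background, at a median of 12.37.

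Markers of T and NK cells were not above background, and those of B and plasma cells were split. Of 14 T and NK cell markers, 0 were above it on any of the 6 arrays, and the median was 4.71, beside 4.58 for the background list. The T cell receptor chains CD3D, CD3E and CD3G had 5.78, 4.48 and 4.48, and CCR7 was the highest marker at 6.25. Of 5 markers of B and plasma cells, CD79B, TNFRSF17 and the immunoglobulin gene LOC396781 had 4.26, 4.71 and 4.56, while 2 of the 5 were above background. They were XBP1, a factor of the secretory pathway in many cells, at 10.30, and JCHAIN, the joining chain of antibodies, at 8.47 (8.10 to 9.23).

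Granulocyte markers varied over the arrays. Of 9 markers of neutrophils and their precursors, 7 were above background, near the 65.1% of all genes, and 7 spanned 1 unit or more beside 5.01% of all genes. ANXA1, which macrophages also express, had 13.32. S100A9, a chain of calprotectin, read 10.67, 11.39, 9.73, 9.46, 10.37 and 10.41, and S100A8, its partner, 8.43, 9.04, 8.16, 7.77, 8.44 and 8.90. PRTN3, the granule protease proteinase 3, read 10.48 and 10.79 on arrays 1 and 2 and between 8.93 and 9.47 on the other 4. PR39, a porcine antibacterial peptide, was instead highest on arrays 5 and 6, at 9.88 and 10.10, in 1 probe set, and highest on arrays 1 and 2, at 8.61 and 9.08, in the other, where the rest lay between 4.50 and 5.42. LTF, lactoferrin, had 6.63 and 6.83 on arrays 1 and 2 and at most 5.24 on the others.

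Of 13 erythroid and platelet markers, 4 were above background, beside 65.1% of all genes. They were HBB, the beta globin, at 8.29 (7.90 to 8.35), GP9 at 7.53, PPBP at 7.44 and ITGB3. AHSP, the globin chaperone, and HBE1 were at 4.11 and 4.36. ITGB3 is also an osteoclast marker, and read 9.05, 9.22, 9.57 and 9.55 on arrays 1 to 4 and 6.90 and 6.68 on arrays 5 and 6. The osteoclast list was split: CTSK, ACP5, ATP6V0D2 at 11.84 and ITGB3 were above background, while MMP9 at 6.68, the calcitonin receptor CALCR at 5.42 and the factor NFATC1 at 5.15 were not. Dendritic cell markers were above background for CD1.1 at 11.60 and CD83 at 10.18 but not for XCR1, CCR7, CD209 and TCF4. Of 13 endothelial markers 5 were above background, ICAM2 at 10.43, PECAM1 at 10.38, EGFL7 at 7.79, TEK at 7.23 (6.85 to 8.06, highest on arrays 5 and 6) and ENG at 7.14. ICAM2 and PECAM1 are also expressed by blood cells. KDR and SELE, at 4.08 and 3.57, were among the 8 that were not. Of 10 stem and progenitor markers 2 were, LMO2 at 9.05 and KIT at 7.42, while CD34 had 6.59 and PROM1 3.51. Of 5 mast cell markers 2 were, KIT again and MS4A2 at 6.97; without array 3 alone the count was 1.

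Over the 6 arrays most genes held one level. The median gene spanned 0.36 log2 units, 339 genes (5.01%) spanned 1 or more and 55 (0.813%) spanned 2 or more. Without arrays 3 and 4, 236 genes spanned 1 or more. The median difference per gene was 0.0975 to 0.11 between neighbours in a pair and 0.127 to 0.173 between other arrays. The narrowest genes above background included the cofilin CFL1, at 13.41 to 13.45, and SLC25A3, a phosphate carrier of mitochondria, at 12.98 to 13.01. FTL was as narrow, but lies at the upper end of the scale on every array. After EIF1AY, the widest was FABP7, a fatty acid carrier known from brain, which read 8.46, 8.69, 6.07, 5.69, 4.20 and 4.72.

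Some stromal genes were higher on arrays 1 and 2 than on the other 4. LUM, the collagen-binding lumican, read 9.22, 9.38, 6.15, 5.92, 5.23 and 5.18, and COL6A3, a chain of collagen VI, 10.14, 10.08, 7.31, 7.39, 6.38 and 6.51. SPARC, a matrix protein of fibroblasts and bone cells, read 11.09 and 11.13 on arrays 1 and 2 and between 7.54 and 7.90 on the others. Arrays 1 and 2 did not overlap the other 4 for any of these, and DCN, FBN1 and CDH11 followed the same pattern. In all, 6 of 22 stromal markers were higher on both arrays 1 and 2 than on each of the other 4 by at least 1 unit, beside 38 of all genes (0.562%). These genes are no independent evidence, since the pattern was seen in the same values.

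The rest of the 22 did not all move with them. COL1A2, a chain of the main fibrillar collagen, had 7.12, 7.06, 6.83, 7.26, 6.80 and 7.15, COL3A1 had 6.40 to 6.72, PDGFRB, a receptor of fibroblasts and pericytes, 7.04 to 7.34, and POSTN, CXCL12 and LEPR were at 4.39 or lower on every array. SPP1, which macrophages make as well, was at 14.18 to 14.40. Leaving SPP1 out, the summed level of the other 21 was 12.64 and 12.65 on the log2 scale on arrays 1 and 2 and between 10.76 and 10.91 on the other 4. Of these 21, 11 were above background on each of arrays 1 and 2 against 3 to 5 on the others. Of all 6765 named genes, 4423 and 4445 were above it on arrays 1 and 2 and 4382 to 4423 on the others. The stromal share was thus below that of all genes on every array. In RNA of a whole culture, fewer cells of a type and less RNA per cell cannot be told apart. Genes outside the list that stood apart in the same way were the gap junction gene GJA1, at 9.80 and 10.08 against 6.05 to 6.44, and the matrix protein TNC, at 8.42 and 8.05 against 4.75 to 5.20. FN1, TIMP1, C1R, C1S, LTF, PRTN3 and OAS1 were also among the 38. FN1, TIMP1, C1R and C1S were 4 of the 26 genes of the secreted protein and complement list, beside 0.562% of all genes. LTF and PRTN3 were 2 of the 9 granulocyte markers, and OAS1 was 1 of the 22 interferon-stimulated genes. C3, S100A8 and IFIT3, from the same lists, did not stand apart in this way. The part of the stromal genes in these values was not tested.

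**Figure D5:**
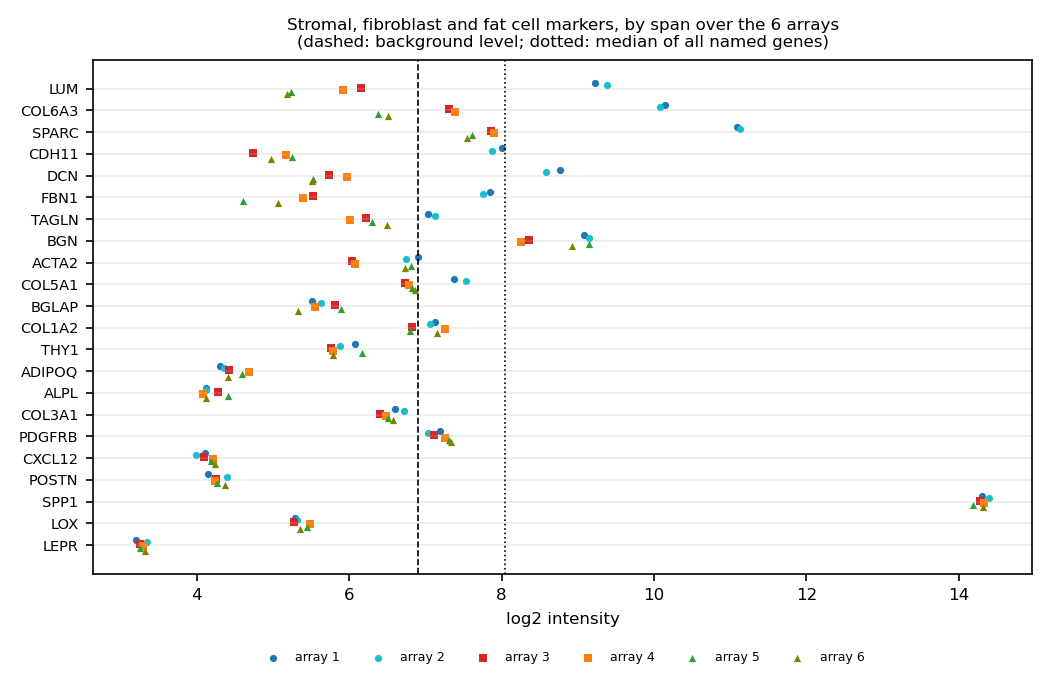
Log2 intensity (horizontal axis) of 22 stromal, fibroblast and fat cell markers, 1 row a gene in order of its span over the arrays, with a point for each array (circles arrays 1 and 2, squares 3 and 4, triangles 5 and 6). Dashed and dotted lines mark the background level of 6.90 and the median of all named genes, 8.05. In the top 6 rows arrays 1 and 2 lie at least 1 unit to the right of the other 4, and lower rows such as POSTN, CXCL12 and LEPR show no such gap.

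Of all 6765 named genes, arrays 5 and 6 stood apart in 26 that were higher by at least 1 unit and 13 that were lower. Among the higher were C3, CASP1, the protease that activates IL1B, at 9.99 on both arrays against 7.80 to 8.78, and HSD11B1, which makes active cortisol, at 8.86 and 8.84 against 5.19 to 7.17. Another was DYNC1I1, a dynein chain, at 8.89 and 8.70 against 5.19 to 5.37. Among the lower were CCL2, ARG1, ITGB3, CTSV and DSP, a desmosome protein, at 5.30 and 4.92 against 8.39 or higher. Arrays 3 and 4 stood apart in 6 of the 6765 genes, higher in C4BPA and ADAMDEC1 and lower in EIF1AY, HSD11B1, FXYD6 and NPG4. NPG4, a porcine antibacterial peptide of neutrophils, had 10.27 and 10.13 against 11.43 to 12.42. These values are from the brightest of its 6 probe sets, and the others are not given here. NPG4 was not in the granulocyte list. The EIF1AY levels of arrays 3 and 4 do not match a labelling of all 6 arrays as 1 male pig, and no array was most similar to its labelled duplicate. Neither value tells the time at which a culture was taken.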

How the data were processed

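RNA of 23 pig macrophage cultures was measured on Affymetrix porcine arrays. The authors deposited 1 probe set intensity per array on a linear scale, made with affy and RMA (background correction, normalization and summary of probes) per the submitters' processing notes; these sources state no versions. Here the deposited intensities were turned to log2 and not normalized again (Python 3.11.15, pandas 2.3.3). There were 24123 probe sets, 124 of them array controls that were not used. The platform annotation gave 1 gene for 10069, several for 198, and 13732 had no listed gene. The RefSeq table of Sscrofa11.1 changed 0 symbols. The probe set with the highest median over the 6 arrays stood for its gene. The counting steps were tested on simulated data. No sequence was used and no coordinates are given.

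The arrays, gene lists and rule for named genes were chosen with earlier results of these data known. The rule took the 25 brightest genes, the 4 highest and 2 lowest members of each list, the 10 widest and 5 narrowest spans, marker genes of other cells above the median, and fixed genes. Other list members, the genes of arrays that stood apart, RPL30 and RPS15A were named after their values were seen. The 6 arrays follow column order, not a labelled group. The alternatives tried left out arrays or pairs, used the arrays labelled 0 h, and changed the probe set, the background level and the normalization.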

Additional observations from a re-analysis of the deposited data

Results flagged for a closer look

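Among 179 named genes, 5 had 1 of the 6 arrays apart from the rest, with a gap to the nearest array, as a share of the whole range, above Dixon's critical value for 6 samples. SRY was not checked. Chance flags about 1 in 20 such sets of independent values, a larger share than 5 of 179. Neighbouring arrays were more alike than other pairs, so that rate may not hold here. Haptoglobin, HP, was high on array 2 (6.29, others 5.64 to 5.77, gap share 0.793), as was KLF4 (7.12, others 6.48 to 6.72, gap share 0.635). INHBA was high on array 3 (8.05, others 7.68 to 7.80, gap share 0.677), and CCR7 was low on that array (5.98, others 6.21 to 6.32, gap share 0.678). The muscle myosin MYH2 was high on array 5 (3.50, others 3.16 to 3.24, gap share 0.763). The spans were 0.34 to 0.65, and HP, CCR7, MYH2 and, by its median, KLF4 were not above background.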

How the results depend on the processing

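The count of genes above background, 4407, ran from 4368 to 4444 with each array left out and from 3410 to 5513 over the alternatives, except that it was 559 at the 99th percentile of the background list (added after seeing the data) and 13 at the higher 99th percentile of control probe sets and that list. The count of genes spanning 1 unit, 339, ran from 300 to 314 with each array left out; it was 169 without arrays 1 and 2, 156 without arrays 5 and 6, 159 on the 2 arrays of the set labelled 0 h, 202 among genes above background and 2276 on the 6 arrays of the series labelled 0 h. The median level, 8.05, was 7.48 with the median of each gene's probe sets and 6.93 with the dimmest. Of 26 lists, 15 had a median above that of all genes, and 14 to 16 over the alternatives. Leaving out an array or a pair moved 0 of 179 named levels by more than 1 SD over the arrays. The arrays labelled 0 h moved 93, and the dimmest probe set 53. Each gene's SD comes from the same 6 arrays and grows with differences between the pairs. A gene in which a pair stands apart, such as EIF1AY or LUM, can therefore shift far without being counted. The 0 does not show that such levels hold when a pair is left out. Of 28 counts of list members above background, 10 moved by over 1.5 times at the 75th percentile of the background list and 22 at the 99th. No paired analysis was possible because no result comes from a test between groups.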

Other observations

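A few probe sets split the arrays by odd and even column. In 5 of 23999, arrays 2, 4 and 6 all lay above arrays 1, 3 and 5 by at least 0.5, and in 1 the reverse held. With no minimum gap the counts were 1090 and 988. The counts expected by chance were not worked out, so these larger counts are not read as a split by column. The 5 included probe sets of RPS6 (8.45, 9.38, 8.71, 9.51, 8.65 and 9.45 on arrays 1 to 6), RPL24, RPL12 and GPNMB. These 4 were dim probe sets of bright genes, a median of 5.09 log2 units below the brightest probe set of the gene. The brightest probe sets of RPS6, RPL24 and RPL12 had 13.78, 13.61 and 13.73. The cause was not tested.

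Of the 100 brightest probe sets on the 6 arrays, 25 had no single listed gene and are unnamed here. ZC3H10, annotated as a zinc finger gene, stood among the ribosomal genes at 14.05 (13.99 to 14.11) from 1 probe set, and was named after its value was seen.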
